A study of Mus musculus with 12 samples.

Results

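The proteasome subunit genes were examined in splenic CD4+ T cells of wild-type C57BL/6 mice. Members were the protein-coding genes of the deposited table whose symbol begins with Psma, Psmb, Psmc, Psmd, Psme, Psmf or Psmg followed by a number, which found 50 of the 45777 genes listed. A filter on low values (an FPKM, fragments scaled to transcript length and library size, of 0.5 or more in 3 samples or more) kept 48 of them and 15197 genes in all. Psma8, an alpha subunit form of the testis, had between 0.0483 and 0.253 scaled FPKM and was not tested. Psmb11, the catalytic subunit of the thymoproteasome, was listed at 0 in all 12 samples. The symbol pattern also took in Psmc3ip, a recombination factor that is no proteasome subunit, and Psme2b, a near copy of Psme2.

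The mice were 7 weeks old by the labels, and their CD4+ T cells were kept for 3 days with anti-CD3 (0.5 µg/ml), so that the controls were activated too. The 4 groups were Control (anti-CD3 with neither drug), Metformin, FK506 (tacrolimus, a calcineurin inhibitor) and Metformin+FK506, with 3 libraries each, and the drug doses of these cultures are not given in the sources used here. The labels name anti-CD3 as the only stimulus, whereas the study's general methods add anti-CD28 and give an older age for the mice; the labels are followed here. The comparisons ask how each drug, and metformin on top of FK506, changes the transcriptome of T cells stimulated through CD3. The labels do not say whether the 3 libraries of a group came from separate mice, so each p-value measures the spread between libraries, which may be technical.

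The proteasome degrades proteins tagged with ubiquitin. Its 20S core is a barrel of alpha rings outside and beta rings inside, and the beta rings carry the catalytic sites. The 19S particle caps the barrel, binds ubiquitin, removes it and unfolds the substrate with a ring of ATPases. In lymphocytes the catalytic subunits beta 5, beta 1 and beta 2 (Psmb5, Psmb6 and Psmb7) are in part replaced by the inducible forms Psmb8, Psmb9 and Psmb10 of the immunoproteasome, which yields peptides for MHC class I. The Psme1 and Psme2 products form the PA28 cap, another regulator of the core. Proteasome production is known to rise when T cells are activated and grow.

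Total counts ran from 43402632 to 64290105 per library, and the member genes held 0.568% ± 0.007 of the counts in Control, 0.456% ± 0.0096 under metformin, 0.479% ± 0.0139 under FK506 and 0.449% ± 0.0054 under both drugs (SD, n = 3). Values by sample are given as scaled FPKM, the deposited FPKM divided by the TMM factor of the library. Without TMM factors the median log2 fold change of all genes tested was 0.247 for FK506 against Control and 0.249 for the combination against Control, against 0.024 and 0.033 with them, and changes below are relative to TMM scaling unless stated. Genes of 12 T cell markers summed to 2470 to 2530 FPKM in Control, 2380 to 2490 with metformin, 2100 to 2210 with FK506 and 2280 to 2360 with the combination. Their directions were mixed, with 6 higher and 4 lower with metformin and 4 higher and 8 lower with FK506 past the threshold. Of all genes tested, 28.6% were higher and 27.4% lower with metformin, and 41.3% and 39.6% with FK506. Genes of 10 B cell markers summed to 51.3 to 53.3 FPKM in Control, 67.6 to 75.5 with metformin, 838 to 887 with FK506 and 410 to 441 with the combination, and all 10 were higher with FK506 past the threshold, against 7 higher and 1 lower with metformin. Genes of 10 myeloid markers summed to 4.4 to 4.57, 8.73 to 10, 1230 to 1260 and 782 to 912 FPKM in the same order. Of these, 9 of the 9 tested were higher with FK506, against 2 (Cd68 and Itgam) higher and 1 lower with metformin. Lyz2 made up most of the FK506 sum, with a mean of 981 FPKM under FK506 and 539 under both drugs. With metformin added to FK506, 3 of the 9 (C1qb, C1qc and Cd68) rose past the threshold, 1 (Lyz2) fell and 5 did not pass. C1qa, C1qc, Adgre1 and Fcgr1 were listed at 0 in Control. The CD8 genes Cd8a and Cd8b1 summed to 9.01 to 9.52 FPKM in Control, 12.9 to 13.2 with metformin, 6.84 to 7.35 with FK506 and 6.93 to 8.64 with the combination, and both rose with metformin, Cd8a by 0.73 (adjusted p = 0.000118) and Cd8b1 by 0.43 (adjusted p = 0.00176) on the log2 scale. These lists move with the metformin results as well as with the FK506 results below, and their part in either was not tested. In bulk RNA, fewer cells of a type and less RNA per cell cannot be told apart.

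Most proteasome genes were lower with each drug under TMM scaling. With metformin, 36 of the 48 genes tested were lower than in Control and 1 was higher, their median fold change on the log2 scale being -0.36. Of all genes tested, 27.4% were lower and 28.6% higher, with a median of 0.01. With FK506, 38 members were lower and 4 higher, with a median of -0.46, against 39.6% of all genes lower and 41.3% higher. The 38 include Psmc3ip, which is no subunit, and the 4 include Psme2b. Scaled by total counts alone, 27 members were lower and 13 higher with FK506, against 31.1% of all genes lower and 51% higher under that scaling. With metformin it gave 35 lower and 1 higher, against 24.9% and 31.5% of all genes. Both comparisons share the 3 Control libraries.

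**Figure D1:**
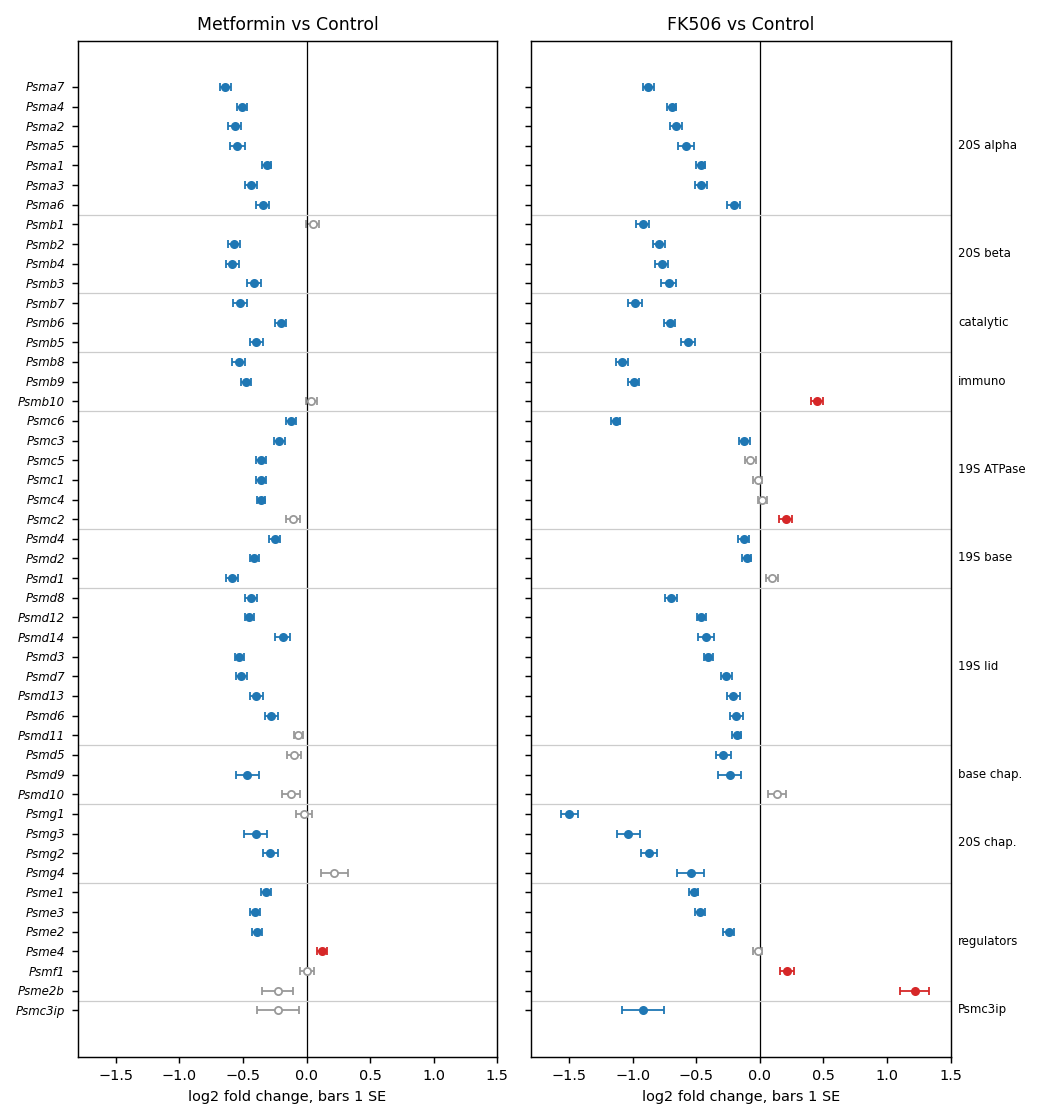
Log2 fold change of the 48 genes tested for metformin (left) and FK506 (right) against Control, by role, with 1 SE. Blue points were lower and red points higher past the threshold, and open grey points did not pass; with total counts in place of TMM factors Psma6, Psmc3, Psmd2, Psmd4, Psmd6, Psmd11 and Psmd13 turn from lower to higher values with FK506.

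Psmb8 had the highest level of all members in Control, and the inducible subunits did not move together. Scaled FPKM of Psmb8, the chymotrypsin-like inducible subunit, was 343, 343 and 340 in Control, 232, 254 and 220 under metformin, 171, 155 and 155 under FK506 and 139, 138 and 141 under both drugs. No group overlapped another. Psmb8 fell by 1.08 (SE 0.05, adjusted p = 2.69e-12) on the log2 scale with FK506 and fell by 0.54 (SE 0.05, adjusted p = 8.38e-08) with metformin. Psmb9, which replaces Psmb6, had 179, 195 and 190 in Control, 136, 139 and 132 under metformin, 95.1, 95.2 and 87.8 under FK506 and 91.3, 84.8 and 91.7 under both drugs. It fell by 0.99 (SE 0.04, adjusted p = 1.51e-12) with FK506 and fell by 0.48 (SE 0.04, adjusted p = 6.99e-08) with metformin, and the levels with FK506 and with the combination overlapped. Psmb10, which replaces Psmb7, had 39, 39.8 and 38.2 in Control, 37.7, 41.6 and 40.5 under metformin, 54.6, 52.9 and 51.3 under FK506 and 43.4, 43.6 and 45.9 under both drugs. The third inducible subunit was thus at its highest with FK506, where every library exceeded every Control library. Psmb10 rose by 0.45 (SE 0.04, adjusted p = 8.23e-08) with FK506, and its change with metformin was 0.04 (SE 0.04, adjusted p = 0.506).

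Each constitutive catalytic subunit was lower with both drugs, beside 27.4% of all genes with metformin and 39.6% with FK506. Psmb5, the chymotrypsin-like subunit, had scaled FPKM of 98.7, 106 and 99.8 in Control, 74.1, 80.9 and 76 under metformin, 69.8, 71 and 63.6 under FK506 and 62, 60.6 and 69.8 under both drugs. It fell by 0.57 (SE 0.05, adjusted p = 4.29e-08) with FK506 and fell by 0.39 (SE 0.05, adjusted p = 8.95e-06) with metformin. For Psmb6, the caspase-like subunit, the values were 105, 114 and 110 in Control, 94.2, 98 and 93.5 under metformin, 69.5, 65.3 and 66.1 under FK506 and 63.8, 62.7 and 70.7 under both drugs, and it fell by 0.71 (SE 0.05, adjusted p = 3.15e-10) and fell by 0.20 (SE 0.04, adjusted p = 0.00103). Psmb6 levels with metformin lay between those of Control and those of FK506, but its metformin call was lost in limma on quantile-normalized FPKM (-0.05, adjusted p = 0.283). The trypsin-like subunit Psmb7 had 137, 151 and 146 in Control, 98.8, 104 and 98.2 under metformin, 75.9, 72.8 and 70.1 under FK506 and 61.6, 60.7 and 73.6 under both drugs. It fell by 0.98 (SE 0.06, adjusted p = 7.97e-11) with FK506, the largest fall of the 3 constitutive subunits, and fell by 0.52 (SE 0.06, adjusted p = 7.36e-07) with metformin.

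**Figure D2:**
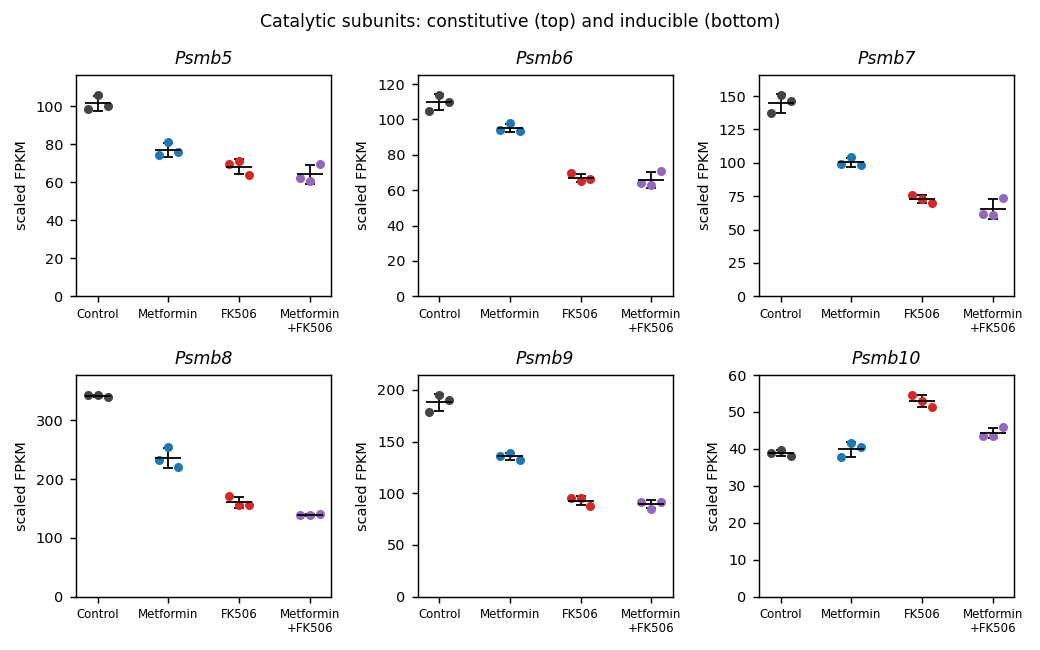
Scaled FPKM of the constitutive subunits Psmb5, Psmb6 and Psmb7 (top) and of their inducible counterparts Psmb8, Psmb9 and Psmb10 (bottom) in the 12 libraries, with mean and SD. In the bottom row Psmb8 and Psmb9 are lowest in the FK506 groups, whereas Psmb10 is at 51.3 to 54.6 with FK506 and 38.2 to 39.8 in Control.

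The ratio of an inducible subunit to its counterpart within a library does not depend on scaling between libraries. The log2 ratio of Psmb8 to Psmb5 was 1.796, 1.695 and 1.767 in Control, 1.647, 1.652 and 1.533 under metformin, 1.293, 1.125 and 1.289 under FK506 and 1.166, 1.183 and 1.015 under both drugs. FK506 lowered it with and without metformin, with a mean difference of -0.50 (p = 0.005, adjusted p = 0.015 over 6 tests, two-sided exact permutation of labels), and metformin gave a mean difference of -0.13 (p = 0.025, adjusted p = 0.036, same exact test), with -0.52 and -0.49 for FK506 without and with metformin and -0.14 and -0.11 for metformin without and with FK506. The smallest p this design allows is 0.005. The log2 ratio of Psmb9 to Psmb6 was 0.769, 0.77 and 0.787 in Control, 0.526, 0.499 and 0.501 under metformin, 0.453, 0.544 and 0.411 under FK506 and 0.516, 0.435 and 0.375 under both drugs. Control stood above the other groups, which overlapped. The mean difference was -0.19 for FK506 (exact permutation p = 0.015, adjusted p = 0.03), made up of -0.31 without metformin and -0.07 with it. For metformin it was -0.15 (exact permutation p = 0.03, adjusted p = 0.036), made up of -0.27 without FK506 and -0.03 with it, so each mean rests mostly on the cultures without the other drug.

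The log2 ratio of Psmb10 to Psmb7 moved the other way. It was -1.811, -1.921 and -1.938 in Control, -1.389, -1.324 and -1.278 under metformin, -0.475, -0.46 and -0.451 under FK506 and -0.506, -0.478 and -0.682 under both drugs. FK506 raised it by a mean of 1.10 (exact permutation p = 0.005, adjusted p = 0.015), with 1.43 without metformin and 0.77 with it. Metformin gave a mean difference of 0.23, which did not pass (exact permutation p = 0.1, adjusted p = 0.1), made up of 0.56 without FK506 and -0.09 with it. As a share of the summed FPKM of both genes, Psmb10 was 21.3% ± 0.81 in Control, 28.5% ± 0.783 under metformin, 42.1% ± 0.201 under FK506 and 40.5% ± 1.84 under both drugs (SD, n = 3). Psmb8 was 77.1% ± 0.634 of Psmb8 and Psmb5 in Control and 70.2% ± 1.4 with FK506 in the same measure.

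**Figure D3:**
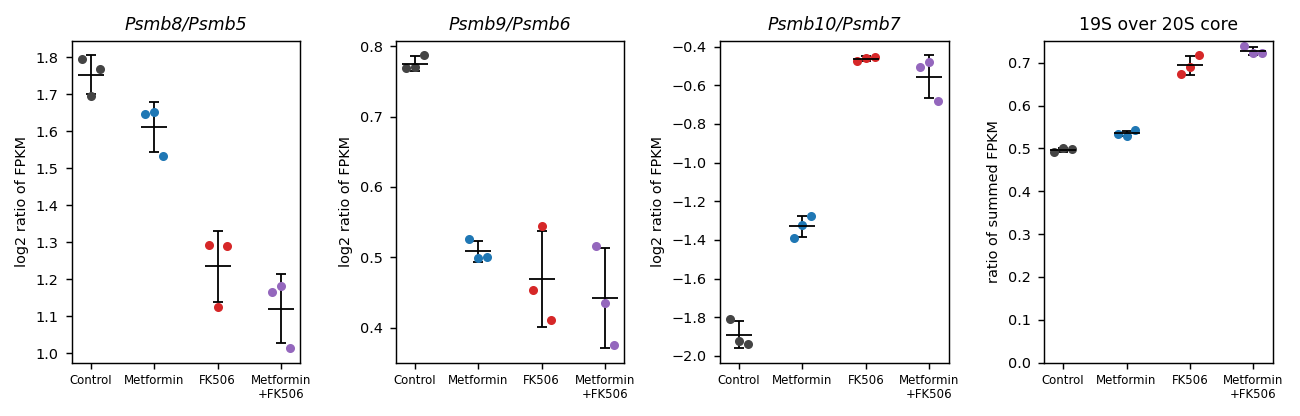
Log2 FPKM ratios of Psmb8 to Psmb5, Psmb9 to Psmb6 and Psmb10 to Psmb7, and the ratio of summed 19S FPKM to summed 20S core FPKM without Psma3, in the 12 libraries with mean and SD. The first and second ratio are highest in Control, and the Psmb10 ratio and the 19S to 20S ratio are lowest there.

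All 7 alpha ring genes, which form the outer rings and the gate of the core, were lower with each drug in counts under TMM scaling, against 27.4% of all genes with metformin and 39.6% with FK506. Psma6 with FK506 and Psma3 with either drug turned under other units or scalings, as given below. Psma7 had scaled FPKM of 182, 176 and 173 in Control, 111, 119 and 110 under metformin, 99.4, 95.4 and 89.7 under FK506 and 91.8, 89.9 and 85.7 under both drugs. It fell by 0.88 (SE 0.05, adjusted p = 1.79e-11) with FK506 and fell by 0.64 (SE 0.04, adjusted p = 4.6e-09) with metformin, the largest falls of the ring in both comparisons. The smallest with metformin was in Psma1, which had 116, 124 and 119 in Control, 95, 96.9 and 96.4 under metformin, 90.3, 85.5 and 83 under FK506 and 76, 76.2 and 77.8 under both drugs and fell by 0.32 (SE 0.04, adjusted p = 2.47e-06). Psma6 had 101, 105 and 98 in Control, 76.8, 79.7 and 82.7 under metformin, 95, 83.1 and 84.6 under FK506 and 72.7, 76.3 and 78.7 under both drugs. It fell by 0.20 (SE 0.05, adjusted p = 0.00183) with FK506, but its log2 fold change was 0.02 with total counts in place of TMM factors, 0.01 on log2(FPKM + 1) and 0.13 on quantile-normalized FPKM, where limma called it higher (adjusted p = 0.0239). Psma3 is given in CPM (counts scaled to a common library size, with TMM factors) because the length implied by its deposited FPKM ran from 1271 to 2591 bases between libraries. Its CPM was 189, 192.1 and 197.7 in Control, 142.5, 141.2 and 143.8 under metformin, 150, 135.9 and 133.6 under FK506 and 123.7, 131.3 and 137.3 under both drugs, and it fell by 0.46 (SE 0.05, adjusted p = 8.86e-08) and fell by 0.44 (SE 0.05, adjusted p = 5.77e-07) on counts, whereas its FPKM gave 0.72 and 0.31 on the log2(FPKM + 1) scale.

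Among the non-catalytic beta subunits, all 4 fell with FK506 and 3 with metformin, beside 39.6% and 27.4% of all genes. Psmb1, or beta 6, was the exception. Its scaled FPKM was 199, 213 and 204 in Control, 211, 219 and 205 under metformin, 112, 110 and 101 under FK506 and 91.3, 104 and 104 under both drugs. Control and metformin libraries overlapped, with a log2 fold change of 0.05 (SE 0.05, adjusted p = 0.457), whereas Psmb1 fell by 0.92 (SE 0.05, adjusted p = 6.19e-11) with FK506. Psmb4, or beta 7, had 172, 182 and 178 in Control, 112, 125 and 117 under metformin, 110, 102 and 97.7 under FK506 and 83.7, 91.1 and 90.7 under both drugs and fell by 0.59 (SE 0.05, adjusted p = 7.69e-08) with metformin. Psmb3, with 152, 148 and 158 in Control, 117, 124 and 103 under metformin, 91.9, 95.5 and 89.4 under FK506 and 89, 84.7 and 82.1 under both drugs, had the smallest change of the 4 with FK506 and fell by 0.72 (SE 0.06, adjusted p = 4.25e-09).

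The median change with FK506 was nearer 0 in the 19S genes than in the core genes. Of the 17 core genes, 16 were lower with FK506 and 1, Psmb10, was higher, their median fold change on the log2 scale being -0.71. Of the 17 19S genes, 12 were lower, 1 was higher and 4 did not pass, with a median of -0.18, and of all genes 39.6% were lower and 41.3% higher. With total counts in place of TMM factors 15 core genes were lower and 1 higher, with a median of -0.485, whereas 5 of the 19S genes were lower and 8 higher, with a median of 0.04, so the sign of the 19S median with FK506 turned with the scaling. All genes were then 31.1% lower and 51% higher, and the 8 of 17 lie near the share higher. With metformin the medians were -0.48 and -0.36, with 15 genes of each set lower, against 27.4% of all genes. The summed FPKM of the 19S genes over that of the core genes, again free of scaling between libraries, was 0.477, 0.485 and 0.482 in Control, 0.509, 0.501 and 0.516 under metformin, 0.624, 0.646 and 0.666 under FK506 and 0.711, 0.671 and 0.684 under both drugs. No library with FK506 overlapped one without. Without Psma3 the means were 0.497 ± 0.0038, 0.535 ± 0.0064, 0.694 ± 0.022 and 0.728 ± 0.009 (SD, n = 3), so the order of the groups stayed.

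In the ATPase ring, 5 of 6 genes fell with metformin and 2 with FK506, of which Psmc3 (-0.12) turned to 0.10 (adjusted p = 0.0438) with total counts and 0.12 (adjusted p = 0.0184) on quantile-normalized FPKM by limma. Total counts are the scaling under which 5 of the ring were higher. All genes were 27.4% lower with metformin, 39.6% lower with FK506 and, under total counts, 51% higher with FK506, so the 2 of 6 lower with FK506 is no more than the share of all genes. Psmc6 stood apart. Its scaled FPKM was 112, 120 and 121 in Control, 106, 111 and 106 under metformin, 53.3, 51.6 and 53.8 under FK506 and 53.1, 52.5 and 51.8 under both drugs, and the FK506 groups lay below both others in every library. It fell by 1.13 (SE 0.04, adjusted p = 5.74e-14) with FK506 and fell by 0.12 (SE 0.04, adjusted p = 0.0105) with metformin; the metformin call was lost without Control replicate 3 (log2 fold change -0.10, adjusted p = 0.0566), under upper-quartile factors (-0.08, adjusted p = 0.0848) and with total counts (-0.09, adjusted p = 0.0535), and quantile-normalized FPKM gave 0.02. Psmc2 had 55.2, 60.5 and 57.9 in Control, 49.7, 55.3 and 54.6 under metformin, 70.6, 63.7 and 65.5 under FK506 and 65.9, 61.9 and 61.9 under both drugs. It rose by 0.20 (SE 0.05, adjusted p = 0.00212) with FK506, and every FK506 library exceeded every Control library, while its change with metformin was -0.11 (SE 0.05, adjusted p = 0.106). Psmc5 had 73.9, 79.7 and 78.8 in Control, 58.4, 62.3 and 60.2 under metformin, 76.8, 71.5 and 71.2 under FK506 and 65.7, 65.4 and 66.6 under both drugs. It fell by 0.36 (SE 0.04, adjusted p = 2e-06) with metformin.

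The large base subunits Psmd1 and Psmd2 and the ubiquitin receptor Psmd4 all fell with metformin, as did 27.4% of all genes. Psmd1, which scaffolds the base, had 33.6, 36.9 and 34.2 in Control, 23.8, 22.5 and 23.2 under metformin, 36.8, 38 and 36.4 under FK506 and 33, 30.8 and 35.5 under both drugs. Metformin libraries were the lowest, and Psmd1 fell by 0.59 (SE 0.05, adjusted p = 1.53e-08) with metformin. Its change with FK506 was 0.10 (SE 0.04, adjusted p = 0.0599), and that call rested on the setting. It passed as higher under RLE factors, upper-quartile factors, DESeq2, a filter on mean FPKM of at least 1, a fit of only the groups compared and the 3 limma fits, at 0.10 to 0.31 with adjusted p of 0.000106 to 0.0294, and with total counts at 0.32 (adjusted p = 4.03e-06). It also passed without Control replicate 2 (0.14, adjusted p = 0.017), Metformin+FK506 replicate 2 (0.10, adjusted p = 0.0286) or Metformin+FK506 replicate 3 (0.10, adjusted p = 0.0274). Psmd4 had 86, 90.1 and 87.4 in Control, 71.6, 78.7 and 71.3 under metformin, 79.7, 78.8 and 81.8 under FK506 and 75.4, 75.9 and 82.6 under both drugs. It fell by 0.25 (SE 0.04, adjusted p = 0.000126) with metformin and fell by 0.13 (SE 0.04, adjusted p = 0.0136) with FK506. The FK506 call on Psmd4 was lost without Control replicate 2 (-0.11, adjusted p = 0.0509), without FK506 replicate 2 (-0.10, adjusted p = 0.0627) and under upper-quartile factors (-0.09, adjusted p = 0.0765). Psmd4 passed as higher with FK506 with total counts (0.10, adjusted p = 0.0414) and on quantile-normalized FPKM (0.18, adjusted p = 0.00129).

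All 8 lid genes, among them the deubiquitinase Psmd14, fell with FK506 and 7 with metformin, but with total counts 4 were lower with FK506 and Psmd6, Psmd11 and Psmd13 had values above 0 that did not pass. The shares of all genes lower were 39.6% with FK506, 27.4% with metformin and 31.1% with FK506 under total counts. Psmd8 had 126, 131 and 125 in Control, 93.7, 96.6 and 90.8 under metformin, 79.1, 79.2 and 75.5 under FK506 and 73.4, 69.5 and 82.4 under both drugs and fell by 0.70 (SE 0.05, adjusted p = 3.99e-10) with FK506, the largest fall of the lid. Psmd3 had 64.9, 63.9 and 62 in Control, 45.2, 45.3 and 41.5 under metformin, 48.4, 48.4 and 46.7 under FK506 and 46.5, 44.2 and 47.1 under both drugs and fell by 0.53 (SE 0.04, adjusted p = 6.2e-09) with metformin. Psmd11, whose product has been tied to assembly of the 26S particle, had 48.4, 48.6 and 50.8 in Control, 47, 47.9 and 48.4 under metformin, 44.1, 44.2 and 40.3 under FK506 and 44.3, 44.1 and 46.2 under both drugs. Its highest scaled FPKM with metformin equalled the lowest in Control to 3 digits, whereas its CPM was 123.9 to 127.2 with metformin and 130.1 to 134.8 in Control; the length implied by its FPKM varied 1.1-fold between libraries. The log2 fold change of the counts with metformin was -0.07 (SE 0.04, adjusted p = 0.118). It fell by 0.18 (SE 0.04, adjusted p = 0.000189) with FK506, the smallest fall of the lid, and was 0.04 with total counts.

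The factors that assemble the core were lower with FK506. The 4 chaperone genes Psmg1 to Psmg4, whose products build the alpha ring, had, on the log2 scale, a median fold change of -0.95, and all 4 were lower, against 2 of 4 lower with metformin. The shares of all genes lower were 39.6% and 27.4%. Psmg1 had 30.3, 30.9 and 33.4 in Control, 30.3, 31.4 and 31.2 under metformin, 11.3, 11.1 and 10.9 under FK506 and 11.9, 10.7 and 10.6 under both drugs. Control and metformin overlapped, and the libraries with FK506 lay between 10.6 and 11.9. It fell by 1.50 (SE 0.07, adjusted p = 1.98e-12) with FK506, the largest fall of any member, while its change with metformin did not pass (adjusted p = 0.777). Psmg3 had 22.1, 23 and 19.5 in Control, 17.3, 17 and 14.7 under metformin, 11, 10.7 and 9.67 under FK506 and 11.2, 10.6 and 10.8 under both drugs. It fell by 0.40 (SE 0.09, adjusted p = 0.00116) with metformin and fell by 1.03 (SE 0.09, adjusted p = 1.97e-08) with FK506. Psmg4 had 22.4, 24.3 and 23.4 in Control, 28.4, 25.3 and 27.8 under metformin, 16.8, 16.8 and 14.7 under FK506 and 13.3, 14.5 and 18.1 under both drugs. It fell by 0.54 (SE 0.11, adjusted p = 0.000204) with FK506, and its change with metformin was 0.22 (SE 0.11, adjusted p = 0.0935), which passed without Metformin+FK506 replicate 3 (0.21, adjusted p = 0.0474), under upper-quartile factors, in a fit of only the groups compared and in the 3 limma fits, these at 0.21 to 0.27 with adjusted p of 0.0199 to 0.0485.

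Of the 3 factors that assemble the 19S base, 1 fell with metformin and 2 with FK506, beside 27.4% and 39.6% of all genes. The FK506 count rests on TMM scaling, since with total counts Psmd5 was lost and Psmd10 passed as higher. Psmd9 had 8.38, 7.41 and 7.1 in Control, 5.04, 5.63 and 5.84 under metformin, 6.33, 5.9 and 7.1 under FK506 and 6.08, 5.92 and 6.25 under both drugs and fell by 0.47 (SE 0.09, adjusted p = 0.000323) with metformin. Psmd5 had 27.5, 28.6 and 29.1 in Control, 25.4, 26 and 28.1 under metformin, 24.9, 22.8 and 21.7 under FK506 and 24, 23.1 and 26.3 under both drugs. It fell by 0.29 (SE 0.06, adjusted p = 0.000236) with FK506, a call that was lost with total counts (-0.06, adjusted p = 0.322) and in limma on log2(FPKM + 1) (-0.07, adjusted p = 0.28) and log2(FPKM + 0.1) (-0.07, adjusted p = 0.28). Its change with metformin was -0.10 (SE 0.06, adjusted p = 0.149). Psmd10, or gankyrin, had 14.5, 15.1 and 16.1 in Control, 13.7, 14.1 and 14 under metformin, 16.4, 16.8 and 16.5 under FK506 and 12.1, 13.2 and 14.8 under both drugs. Its change with FK506 was 0.13 (SE 0.07, adjusted p = 0.0913). It passed as higher without Metformin+FK506 replicate 1 (0.14, adjusted p = 0.046) or replicate 3 (0.14, adjusted p = 0.0467). Psmd10 also passed under upper-quartile factors, a filter on mean FPKM of at least 1, a fit of only the groups compared and the 3 limma fits, at 0.14 to 0.35 with adjusted p of 0.000255 to 0.0443, and with total counts at 0.36 (adjusted p = 0.000158).

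The regulators did not share a direction. Psme1, PA28 alpha, had 299, 307 and 300 in Control, 239, 249 and 237 under metformin, 216, 202 and 210 under FK506 and 187, 196 and 197 under both drugs. It fell by 0.52 (SE 0.04, adjusted p = 1.41e-09) with FK506 and fell by 0.32 (SE 0.04, adjusted p = 1.92e-06) with metformin. Its partner Psme2, PA28 beta, had 248, 251 and 246 in Control, 186, 197 and 184 under metformin, 222, 199 and 206 under FK506 and 190, 182 and 199 under both drugs. It fell by 0.39 (SE 0.04, adjusted p = 9.06e-07) with metformin and fell by 0.24 (SE 0.04, adjusted p = 6.07e-05) with FK506. The FK506 call on Psme2 was lost with total counts (-0.02, adjusted p = 0.671) and in limma on log2(FPKM + 1) (-0.03, adjusted p = 0.576) and log2(FPKM + 0.1) (-0.03, adjusted p = 0.577), and quantile-normalized FPKM gave 0.08. Psme3, the nuclear PA28 gamma, had 73, 71 and 73.3 in Control, 56.5, 53.6 and 53.1 under metformin, 53.4, 52.5 and 51.4 under FK506 and 49, 46.9 and 52.4 under both drugs and fell by 0.47 (SE 0.04, adjusted p = 9.19e-09) and fell by 0.41 (SE 0.04, adjusted p = 1.82e-07).

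Psme4, or PA200, had 17.2, 17.9 and 17.2 in Control, 19.2, 18.5 and 19 under metformin, 16.7, 17.3 and 17.7 under FK506 and 16.5, 15.5 and 16.7 under both drugs. It was the only member that rose with metformin past the threshold, and rose by 0.12 (SE 0.04, adjusted p = 0.00929). Its change with FK506 did not pass (adjusted p = 0.654). Psmf1, or PI31, had 10.5, 11 and 10.2 in Control, 10.9, 10.1 and 10.5 under metformin, 11.7, 13.9 and 11.5 under FK506 and 10.7, 10.8 and 11.7 under both drugs. It rose by 0.22 (SE 0.05, adjusted p = 0.00171) with FK506, and its change with metformin did not pass (adjusted p = 0.998). The length implied by the FPKM of Psmf1 varied 1.11-fold between libraries. Its CPM was 44.84, 48.19 and 43.13 with FK506 and 37.48, 40.89 and 38.79 in Control. Psme2b had 6.41, 6.16 and 6.06 in Control, 5.86, 4.49 and 5.5 under metformin, 13.7, 16.4 and 13 under FK506 and 19.1, 15.4 and 18.2 under both drugs, and both FK506 groups lay above both others. It rose by 1.22 (SE 0.11, adjusted p = 4.52e-08) with FK506, and its metformin change was -0.23 (SE 0.12, adjusted p = 0.12). The longest coding transcripts of Psme2b and Psme2 were 99.4% identical over 794 aligned bases, so reads could have been split between them, and Psme2b is uncertain. Psmc3ip, which is no subunit, had 6.77, 7.46 and 7.15 in Control, 5.61, 7.1 and 5.49 under metformin, 3.49, 3 and 4.72 under FK506 and 2.88, 3.23 and 2.56 under both drugs. It fell by 0.92 (SE 0.17, adjusted p = 8.78e-05) with FK506, and its metformin change was -0.23 (SE 0.16, adjusted p = 0.255).

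With both drugs, 40 members were lower than in Control and 4 higher, their median fold change on the log2 scale being -0.55, against 39.6% of all genes lower and 42.1% higher. Scaled by total counts alone, 31 were lower and 8 higher, against 31.7% and 51.1% of all genes. The combination gave -1.27 (SE 0.05, adjusted p = 3.5e-13) for Psmb8, -1.02 (SE 0.04, adjusted p = 1.04e-12) for Psmb9 and -1.49 (SE 0.07, adjusted p = 2.2e-12) for Psmg1. The 4 that rose were Psmb10 (0.21), Psme2b (1.52), Psmc2 (0.16) and Psmf1 (0.13). Without Control replicate 1 the count higher was 2, since Psmc2 (0.12, adjusted p = 0.0653) and Psmf1 (0.11, adjusted p = 0.129) no longer passed. Psmc2 was also lost without Metformin+FK506 replicate 1 (0.12, adjusted p = 0.0585). The call on Psmf1 was lost as well without Control replicate 3 (0.13, adjusted p = 0.0801), Metformin+FK506 replicate 2 (0.13, adjusted p = 0.0582) or Metformin+FK506 replicate 3 (0.09, adjusted p = 0.14).

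Adding FK506 to metformin lowered 28 members and raised 12, with a median of -0.17, against 37.9% of all genes lower and 40.3% higher. With total counts alone 20 were lower and 19 higher, of 48, and the median was 0.01. Of the core genes 15 were lower and 1 higher, with a median of -0.30, and of the 19S genes 5 were lower and 9 higher, with a median of 0.11. With total counts these were 11 lower and 2 higher in the core and 3 lower and 13 higher in the 19S set, against 30% of all genes lower and 49.4% higher. Psmd1 rose by 0.53 (SE 0.05, adjusted p = 1.47e-08) and Psmc4 rose by 0.29 (SE 0.03, adjusted p = 5.33e-07), whereas Psmc6 fell by 1.00 (SE 0.04, adjusted p = 4.15e-13). Psmb8 fell by 0.73 (SE 0.05, adjusted p = 5.55e-10), Psmb9 fell by 0.54 (SE 0.04, adjusted p = 5.04e-09) and Psmg1 fell by 1.46 (SE 0.07, adjusted p = 3.56e-12). Psmb10 rose by 0.17 (SE 0.04, adjusted p = 0.00238), and Psme2b rose by 1.75 (SE 0.12, adjusted p = 6.11e-10).

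Adding metformin to FK506 lowered 16 members and raised 1, with a median of -0.09, against 15% of all genes lower and 15.6% higher. Without FK506 replicate 1, 9 were lower, against 12.6% of all genes. Psmd10 fell by 0.30 (SE 0.07, adjusted p = 0.00383), Psmb10 fell by 0.24 (SE 0.04, adjusted p = 0.000525) and Psmb8 fell by 0.19 (SE 0.05, adjusted p = 0.00787), and the change of Psmb9 was -0.03 (SE 0.04, adjusted p = 0.66). The call on Psmb8 was lost in limma on quantile-normalized FPKM (-0.07, adjusted p = 0.102). The member that rose was Psme2b, which rose by 0.30 (SE 0.11, adjusted p = 0.0454). That call was lost under RLE factors, with no filter, in a fit of only the groups compared, under the replicate block and in limma on log2(FPKM + 1) and log2(FPKM + 0.1), at 0.27 to 0.30 with adjusted p of 0.0526 to 0.0933. It was also lost without any one of Control replicates 1, 2 and 3, Metformin replicate 3, FK506 replicates 1 and 3 and Metformin+FK506 replicates 1 and 3, with log2 fold changes of 0.23 to 0.30 and adjusted p of 0.0544 to 0.183.

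The metformin change with FK506 and without it was compared by the interaction term of the same fit, as the log2 fold change of metformin with FK506 minus that without. The difference was above 0 past the threshold in 32 members and below 0 in 2, with a median of 0.27, against 22.5% of all genes above and 24% below. It was largest in Psma7, at 0.58 (SE 0.06, adjusted p = 1.58e-06). Psmb9 had 0.45 (SE 0.06, adjusted p = 1.32e-05), Psmb8 0.35 (SE 0.07, adjusted p = 0.000503), Psmb7 0.37 (SE 0.08, adjusted p = 0.00122) and Psmb5 0.32 (SE 0.08, adjusted p = 0.00218). Psmd2, with the metformin levels 59.9, 61.7 and 61 against 78.8, 84.6 and 80.4 in Control, and the combination at 79.3, 75 and 81.2 against 74.7, 77.3 and 74 with FK506, had 0.49 (SE 0.05, adjusted p = 5.15e-07). The 2 members below 0 were Psmb10, at -0.28 (SE 0.06, adjusted p = 0.00165), and Psme4, at -0.18 (SE 0.05, adjusted p = 0.00826), and without Metformin+FK506 replicate 3 there were 4. Psme2b had 0.53 (SE 0.16, adjusted p = 0.0136). Psmb6 had 0.19 (SE 0.06, adjusted p = 0.0206), which was lost without Control replicate 2 (0.17, adjusted p = 0.0595), FK506 replicate 2 (0.17, adjusted p = 0.0528) or Metformin+FK506 replicate 3 (0.15, adjusted p = 0.0505). It was also lost under upper-quartile factors (0.14, adjusted p = 0.0792), with total counts (0.15, adjusted p = 0.0545) and in the 3 limma fits (0.12 to 0.14, adjusted p of 0.1 to 0.11).

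**Figure D4:**
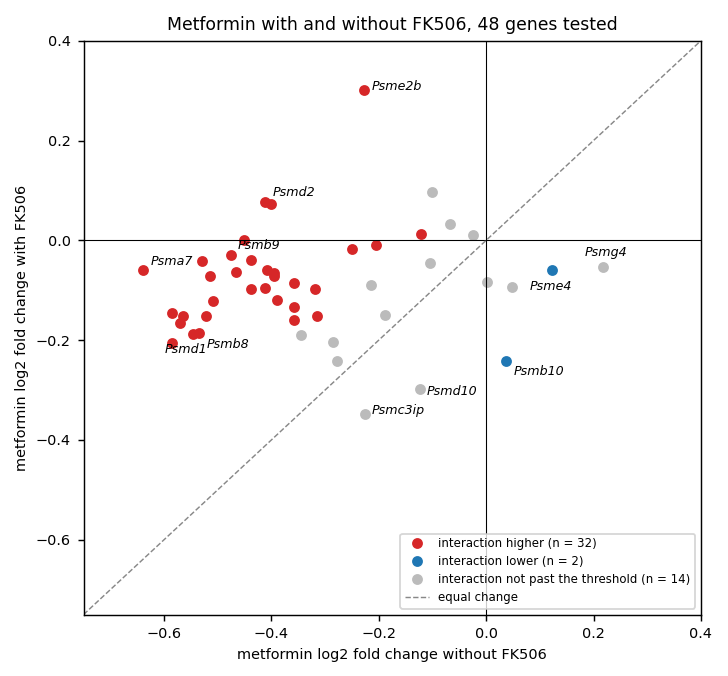
Metformin log2 fold change of the 48 genes tested without FK506 (x axis) and with FK506 (y axis), coloured by the interaction test. The 32 red points lie above the dashed line of equal change, and Psmb10 and Psme4 lie below it.

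Other genes of the pathway were read from lists, whose counts stand against 28.6% of all genes higher and 27.4% lower with metformin and 41.3% higher and 39.6% lower with FK506. Of 10 proteasome factors outside the symbol pattern, 7 were lower and 2 higher with metformin and 8 lower and 1 higher with FK506, with medians of -0.21 and -0.47. Pomp, the maturation factor of the core, had log2 fold changes of -0.51 (adjusted p = 1.87e-07) with metformin and -0.37 (adjusted p = 2.47e-06) with FK506. The deubiquitinase gene Uchl5 had -0.33 and -1.16, and Zfand5, a proteasome activator, had 0.20 and 0.66. Of 8 genes of the route that activates NRF1, the factor known to drive proteasome genes, 5 were higher and 2 lower with metformin and 5 higher and 3 lower with FK506. Nfe2l1, which encodes NRF1, had 0.67 with metformin and -0.12 with FK506, both past the threshold under TMM scaling. With total counts Psmd2, at -0.103 with FK506 under TMM scaling, turned to 0.12. The sign of the FK506 change of Nfe2l1 may therefore rest on the scaling.

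Of 13 ubiquitin genes and shuttles, 6 were higher and 6 lower with metformin and 3 higher and 7 lower with FK506, beside the same shares of all genes (28.6% and 27.4%, then 41.3% and 39.6%). Rps27a, which encodes ubiquitin fused to a ribosomal protein, had 0.43 with metformin and -2.10 with FK506. Of 13 MHC class I and interferon-linked genes, 4 were higher and 6 lower with metformin and 4 higher and 5 lower with FK506, near those shares for the genes higher with metformin and lower with FK506. Tap1, a peptide transporter gene between Psmb9 and Psmb8 on chromosome 17, had -0.38 with metformin and -1.08 with FK506. Tap1 and Psmb9 share 212 exonic bases on opposite strands, and whether counting used strand is not given in the sources used here. Irf1, an interferon-regulated factor, had 0.34 and 0.95.

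Promoters are shown for the catalytic subunits that parted, Psmb8, Psmb9 and Psmb10, for Psmb5, for the ATPases Psmc6 and Psmc2, which moved in opposite directions with FK506, and for Psmg1. Each is the stretch of 250 bases before a RefSeq start on GRCm38.p6, 5′ to 3′ on the strand of the gene, with matched motifs in capitals. They lie at chr17:34197945-34198194 (+ strand), chr17:34187331-34187580 (- strand), chr8:105938393-105938642 (- strand), chr14:54617996-54618245 (- strand), chr14:45329574-45329823 (+ strand), chr5:21785025-21785274 (+ strand) and chr16:95990961-95991210 (- strand), and Psmc2 has another start, not printed.
Psmb8: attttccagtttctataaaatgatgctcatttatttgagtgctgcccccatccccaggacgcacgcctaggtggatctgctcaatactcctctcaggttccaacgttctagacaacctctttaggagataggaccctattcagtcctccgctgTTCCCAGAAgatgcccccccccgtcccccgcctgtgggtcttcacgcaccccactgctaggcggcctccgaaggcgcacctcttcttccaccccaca
Psmb9: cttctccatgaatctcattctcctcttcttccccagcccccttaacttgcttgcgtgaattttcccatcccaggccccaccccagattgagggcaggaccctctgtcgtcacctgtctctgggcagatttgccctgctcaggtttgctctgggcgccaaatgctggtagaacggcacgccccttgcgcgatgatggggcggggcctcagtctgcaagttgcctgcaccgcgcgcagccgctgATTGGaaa
Psmb10: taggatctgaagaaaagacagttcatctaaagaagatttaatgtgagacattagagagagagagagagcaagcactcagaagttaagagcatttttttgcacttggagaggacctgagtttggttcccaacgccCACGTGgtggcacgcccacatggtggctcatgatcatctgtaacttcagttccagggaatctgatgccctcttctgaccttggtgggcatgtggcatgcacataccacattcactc
Psmb5: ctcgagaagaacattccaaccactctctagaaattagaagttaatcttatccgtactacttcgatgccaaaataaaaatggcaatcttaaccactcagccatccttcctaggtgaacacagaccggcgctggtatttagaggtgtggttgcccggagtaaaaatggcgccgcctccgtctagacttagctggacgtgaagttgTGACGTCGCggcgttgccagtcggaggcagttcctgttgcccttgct
Psmc6: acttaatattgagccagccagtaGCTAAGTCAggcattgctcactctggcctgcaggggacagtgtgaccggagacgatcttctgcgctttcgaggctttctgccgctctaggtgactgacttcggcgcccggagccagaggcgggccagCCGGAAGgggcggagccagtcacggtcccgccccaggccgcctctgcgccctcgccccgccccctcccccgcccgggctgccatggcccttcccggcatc
Psmc2: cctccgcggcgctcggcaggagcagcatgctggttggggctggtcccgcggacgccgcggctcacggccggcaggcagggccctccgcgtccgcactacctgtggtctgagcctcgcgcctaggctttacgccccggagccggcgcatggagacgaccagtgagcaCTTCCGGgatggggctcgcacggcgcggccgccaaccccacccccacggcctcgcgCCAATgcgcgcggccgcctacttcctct
Psmg1: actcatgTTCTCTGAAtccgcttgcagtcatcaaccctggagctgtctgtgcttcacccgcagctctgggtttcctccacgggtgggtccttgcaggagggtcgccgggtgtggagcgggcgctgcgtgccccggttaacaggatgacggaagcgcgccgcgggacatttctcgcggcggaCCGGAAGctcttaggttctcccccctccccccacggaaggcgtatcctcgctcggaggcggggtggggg

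Windows of 300 bases (250 before to 50 after each start) were found for 42 of the 50 members, and 6 motifs were searched on both strands. The letters were TGACNNNGC for the antioxidant response element core, CCAAT for the CCAAT box, CCGGAAG for an ETS site, GAAANNGAA for the interferon-stimulated response element core, TTCNNNGAA for the gamma-activated site and CACGTG for the E-box. No matches of different motifs shared bases in a member window. The ETS letters were in 15 of 42 members (35.7%), against 9.93% of 27025 genes with a window, and in 9 of 14 19S genes and 1 of 14 core genes. The other motifs were in 14.3%, 35.7%, 16.7%, 7.1% and 9.5% of members, in the order above without the ETS site, against 14%, 41.1%, 9.76%, 9.55% and 8.09% of all genes. In the printed stretches the capitals are the gamma-activated site in Psmb8, the CCAAT box in Psmb9, the E-box in Psmb10, the antioxidant response element core in Psmb5 and the same core with an ETS site in Psmc6. Psmc2 holds an ETS site and a CCAAT box and Psmg1 a gamma-activated site and an ETS site. Psmc6 and Psmc2 both hold the ETS letters, although they differed in direction. No member was missing from the search for any other reason than the lack of a window: Psma8, Psmb1, Psmb2, Psmb7, Psmc3, Psmd3, Psmd7 and Psmg2 had none.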

How the data were processed

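Libraries of polyA RNA from splenic CD4+ T cells were sequenced, 3 in each of the groups Control, Metformin, FK506 and Metformin+FK506, and grouped by the sample labels. The authors deposited 1 table of 45777 genes with a read count per gene and library, not normalized, and FPKM values, which divide by transcript length and library size. The submitters' processing notes name bcl2fastq 2.20.0, Trimmomatic, HISAT2 2.1.0, StringTie 2.1.3b and the mm10 build. Filters, strand and the handling of shared reads are not given in the sources used here, so near copies and genes that overlap others are uncertain. Overlaps on opposite strands were Psmb9 and Tap1, Psmb7 and Nek6, Psmd13 and Sirt3, Psmd9 and Gm26745, Psmb8 and Gm20496, Psmc3 and Slc39a13, and Psmc3ip and Mlx. Opposite-strand overlaps of a smaller share of the exonic bases lay in Psma4, Psma5, Psmd1, Psmd3 and Psme1. Overlaps on the same strand were Psmb5 and Mir686, Psmg3 and Gm26938, Psmd1 and Gm21972, and Psme2b and 9930111J21Rik1. Another 12 per-sample columns (TPM) were not used. Replicate libraries differed by more than sampling noise.

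The 15197 genes that reached an FPKM of 0.5 in 3 or more libraries were tested on the deposited counts with edgeR 4.0.16 (quasi-likelihood test, TMM factors, all 4 groups in 1 fit, 8 residual degrees of freedom) in R 4.3.3, checked on simulated data, with Benjamini-Hochberg adjusted p under 0.05 over all 15197 genes as the threshold. The standard error is the size of the log2 fold change over the square root of the F statistic. Scaled FPKM is deposited FPKM over the TMM factor. Log2 ratios of paired subunits used deposited FPKM and a two-sided exact permutation of 1 drug's labels within the strata of the other. DESeq2 1.42.0, limma 3.58.1 on log2 values of FPKM + 1 or + 0.1, other scalings, filters and designs were alternatives. Promoter windows and positions came from RefSeq tables of GRCm38.p6, and exon overlaps and transcript sequences from GENCODE. Reads in a library limit the precision of low genes such as Psmc3ip and Psme2b.

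The members and lists were chosen with earlier results of these data known. Values by sample are given for Psmb5 to Psmb10, the regulators, the members of each role group with the highest and the lowest log2 fold change, sign included, with FK506 and with metformin, and members called against their group. Psmd2 in the interaction, Psma3, Psmc4 and Psmd10 under the combination, the genes named from the lists, and the promoters shown were chosen after their values were seen.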

Additional observations from a re-analysis of the deposited data

Results flagged for a closer look

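The change with metformin differed between cultures with and without FK506, by the interaction term of edgeR's quasi-likelihood test, in 32 proteasome genes above 0 and 2 below 0, against 22.5% and 24% of all genes. Among the genes named, the metformin log2 fold change with FK506 minus that without was 0.58 for Psma7, 0.53 for Psme2b, 0.49 for Psmd2, 0.45 for Psmb9, 0.37 for Psmb7, 0.35 for Psmb8, 0.32 for Psmb5 and 0.19 for Psmb6. It was -0.28 for Psmb10 and -0.18 for Psme4. The log2 ratio of Psmb10 to Psmb7 was higher in every metformin library than in every Control library, by 0.56 in the mean, and lower in every combination library than in every FK506 library, with a mean difference of -0.094; this difference was not tested. Groups of 3 libraries were too small for a check of single libraries that stand apart.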

How the results depend on the processing

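The counts of proteasome genes stayed within 1.5 times under upper-quartile factors, RLE factors, DESeq2, other filters, fits of only the groups compared and the replicate block, other than the small counts that follow. Scaling by total counts, an alternative chosen after seeing the data that carries the scaling of the deposited FPKM, gave 13 higher with FK506, 8 with the combination against Control and 19 with the combination against metformin, where the median turned to 0.009. Limma on log2(FPKM + 1) and on log2(FPKM + 0.1) gave 12 higher with FK506, 8 with the combination and 2 with metformin, and 5 and 4 members below 0 in the interaction. On log2(FPKM + 1), 49.9%, 49.4% and 28.9% of all genes were then higher in that order, and 27.3% below 0 in the interaction. Limma on quantile-normalized values gave 14, 10 and 4 in the same order, 4 below 0 in the interaction, 3 higher and 10 lower for the combination against FK506, and 18 lower for the combination against metformin, where the shares of all genes were 37.9%, 39.5% and 27.8%, 23.8%, 17.2% and 14.2%, and 40.2%. With metformin, 2 were higher under upper-quartile factors and in the fit of only the groups compared, which also left 10 lower for the combination against FK506. Without a filter 2 were higher for the combination against Control. The combination against FK506 had 0 higher in edgeR under RLE factors, no filter, only the groups compared and the replicate block and in both limma fits on FPKM, with 1 at an unadjusted p under 0.05 in each and 1 by DESeq2.

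Of the 214 calls on members over the 6 comparisons, 18 had the other sign with total counts (4 of them past the threshold), 18 on quantile-normalized FPKM (10 past) and 19 in each limma fit on FPKM (4 past). Named single genes turned direction only on FPKM or total counts, in the order log2(FPKM + 1), log2(FPKM + 0.1), quantile-normalized, total counts. With FK506, Psmd4 was 0.089, 0.09, 0.179 and 0.097, Psmc3 and Psmd2 also turned, past the threshold, when quantile-normalized (0.115 and 0.172) and with total counts (0.101 and 0.12), and Psma6 was 0.008, 0.009, 0.134 and 0.019. Psmd11 was 0.02, 0.02 and, with total counts, 0.044, and Psme2 was 0.075 when quantile-normalized. Psma3 was 0.716, 0.723 and 0.788 with FK506 and 0.313, 0.316 and 0.383 with metformin in the 3 FPKM fits, where its implied length differs. Quantile-normalized values with metformin were 0.014 for Psmc2, 0.021 for Psmc6 and 0.074 for Psmd11, and 0.039 for Psmb9 in the combination against FK506. The cause of the other turns was not tested. Calls beside those in the report that changed were, quantile-normalized, Psmb1 (0.244, now past the threshold), Psmb10 (0.123, now past), Psmb6 (-0.052, lost) and Psmd4 (-0.08, lost) with metformin, Psmd11 (-0.009, lost) with FK506, and Psmb8 (-0.072, lost) in the combination against FK506. In the fit of only the groups compared, Psmc2 (-0.115), Psmd11 (-0.077) and Psmd5 (-0.111) passed with metformin. For the combination against Control, Psmc2 (0.104) and Psmf1 (0.081) were lost with no filter, and Psmf1 also when quantile-normalized (0.096) or with only the groups compared (0.134).

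Leaving out each sample in turn gave 1 to 2 higher with metformin (2 without Metformin+FK506 replicate 3), 2 to 4 higher for the combination against Control (2 without Control replicate 1), 0 to 1 higher and 9 to 18 lower for the combination against FK506 (9 without FK506 replicate 1), and 2 to 4 below 0 in the interaction (4 without Metformin+FK506 replicate 3). No named gene turned direction. The 6 ratio effects stayed within 1 SD of replicates under all alternatives run. The 19S to 20S ratio of FK506 over Control was 1.34, 1.40 without Psma3 and 1.47 without Psma3 and Psmc6.

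Replicate numbers did not pair the samples: of 18 same-numbered pairs, 0 had a correlation of deviations over 0.1 (-0.122 to 0.069, against -0.066 to 0.117 for other numbers). The replicate block gave 4 higher and 38 lower with FK506 and 14 lower for the combination against FK506, and of the genes named only Psme2b in the latter lost its call (0.30, adjusted p = 0.065). Depth limits the low genes Psmc3ip, Psme2b and Psmd9.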
